A study of Homo sapiens with 20 samples.

Results

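Small nucleolar RNA (snoRNA) host lncRNAs are long noncoding genes whose introns carry snoRNAs. The host genes were taken by name from the GENCODE release 44 annotation, as all genes called SNHG followed by a number plus GAS5, ZFAS1 and EPB41L4A-AS1. This gave 31 genes on 15 chromosomes, out of 57536 genes with a transcript in the files and 27697 mRNA and lncRNA genes that could be tested. The samples were 10 of NGP, a human neuroblastoma cell line, treated with nutlin-3 as a racemic mixture at 8 µM, and 10 of the same line treated with ethanol as the vehicle. Every sample is thus of a single line, and the duration of treatment is not given in the sources used here. Nutlin-3 binds MDM2 and keeps it from p53, and the comparison asks which genes differ in level between treated and vehicle samples. Nothing in the labels says that the samples of a group came from separate experiments, so p-values measure the spread between these samples only.

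The introns of a host transcript are spliced out, opened by the debranching enzyme and trimmed until only the snoRNA remains, held by a set of core proteins. C/D box snoRNAs guide 2′-O-methylation of ribosomal RNA and H/ACA box snoRNAs guide its pseudouridylation, while the related scaRNAs act on spliceosomal RNAs in Cajal bodies. The spliced exons that are left over are the lncRNA, and several of them carry short open reading frames and are removed by nonsense-mediated decay. Many host genes begin with a run of pyrimidines at the start of the RNA, the terminal oligopyrimidine (TOP) feature known from ribosomal protein genes. The libraries were made from poly(A) RNA, so the values below describe the host transcripts and not the mature snoRNAs, which have no poly(A) tail.

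The estimated counts that kallisto gave for the transcripts of a gene were summed, and they totalled 14455477 to 19532971 read pairs in a sample. Levels within a gene are given in CPM, its counts relative to the library size with edgeR's correction for library composition, and levels between genes in TPM, which kallisto also corrects for transcript length. The treatment was checked with MDM2, a p53 target, which ran from 198.9 to 290.3 CPM in vehicle and from 4797 to 6005 CPM in nutlin. Neuroblastoma markers were present in every sample, with GATA3 at 229 to 337 CPM and MYCN at 2586 to 4243 CPM, whereas the 4 leukocyte markers summed to at most 1.14 CPM and the 4 epithelial markers to at most 3.83 CPM. Of the 6 mesenchymal markers, 2 rose and 2 fell, and their sum was 38.6 to 46.4 CPM in vehicle and 53.9 to 63.2 CPM in nutlin. In a bulk library, a change in every cell cannot be told apart from a change in the share of cells that express the gene.

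All 31 host genes passed the filter of at least 1 count in each group, 23 of them averaged at least 10 CPM, and 5 (SNHG18, SNHG22, SNHG26, SNHG27 and SNHG28) stayed below a mean of 1 CPM. Of these genes, 30 have a snoRNA or scaRNA listed inside them in GENCODE 44. The exception is GAS5, for which RefSeq lists 11. The number of guests ranges widely, from 1 C/D snoRNA in SNHG19 to 84 in SNHG14, the long transcript of the imprinted Prader-Willi region that carries the SNORD115 and SNORD116 arrays.

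SNHG29, host of SNORD49A, SNORD49B and SNORD65, was the most abundant host lncRNA in vehicle with 699 ± 65.6 TPM (SD, n = 10). It was followed by GAS5 with 445 ± 40.9, SNHG5 with 415 ± 64.5, SNHG8 with 260 ± 29.4 and SNHG1 with 244 ± 14.8 TPM. SNHG29 lay above GAS5 in 10 of 10 vehicle samples, while GAS5 lay above SNHG5 in 7 of 10, and that difference of 30.4 TPM was smaller than its SD of 50.7. From the fourth place to the ninth (SNHG8, SNHG1, SNHG19, SNHG25, ZFAS1 and SNHG6), each neighbour differed from the next by less than 1 SD of the difference. In nutlin the top 3 places were unchanged, at 1212 ± 154 TPM for SNHG29, 1015 ± 73.7 for GAS5 and 615 ± 82.8 for SNHG5. SNHG25 moved from rank 7 to rank 4 and SNHG1 from rank 5 to rank 8. These exact places are not settled. In nutlin SNHG25 lay above SNHG8 by 25.4 TPM with an SD of 61.9, and SNHG1 above SNHG6 by 17.3 TPM with an SD of 36.5. SNHG19 lay above SNHG1 in 10 of 10 nutlin samples.

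Host lncRNAs were mostly higher after nutlin-3. With edgeR's quasi-likelihood test at 5% false discovery rate (FDR), 21 of the 31 were significantly differentially expressed (SDE) in the upward direction and 3 in the downward direction, and 7 were not called. Over all genes tested, 32.3% were called higher and 26.5% lower. Among genes from a mean of 10 CPM upward, the calls lean the other way, with 27.4% higher and 57.6% lower, while of the 23 host genes at that level 17 were higher and 3 lower. The median log2 fold change (LFC, nutlin against vehicle) of the host genes was 0.54, against 0.19 over all genes tested. For 12 host genes every nutlin sample lay above every vehicle sample, and for 2 every nutlin sample lay below, where 12.2% and 16.6% of all genes did so. These comparisons are with mRNA and lncRNA genes together, not with lncRNA genes alone. Of the counts on lncRNAs, the hosts took a mean of 9.04% in vehicle and 9.30% in nutlin, with overlapping groups.

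**Figure D1:**
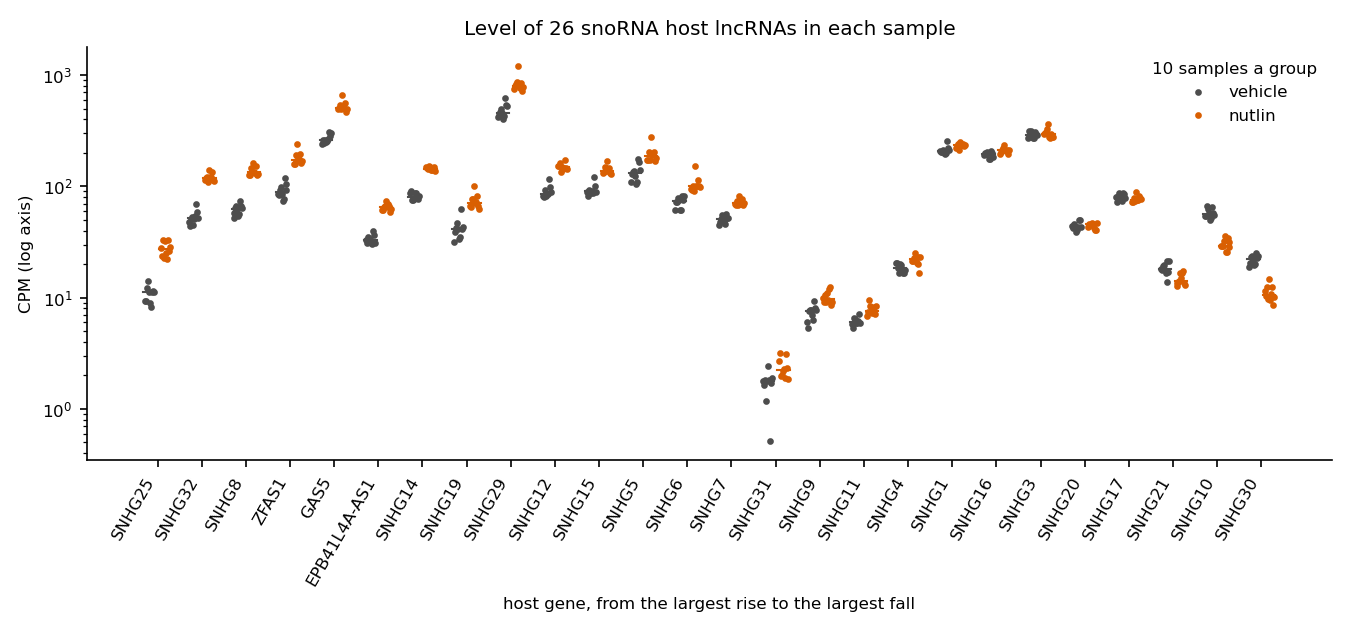
Level in CPM (log axis) of the 26 host lncRNAs averaging at least 1 CPM, in each of 10 vehicle (grey) and 10 nutlin (orange) samples, with the median of each group as a line. The clouds are apart for the genes on the left, such as SNHG25 and SNHG32, lie side by side for SNHG1 to SNHG17, and are apart in the other direction for SNHG10 and SNHG30.

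The largest rise among well-expressed hosts was in SNHG25, which carries the H/ACA snoRNA SNORA50C and the C/D snoRNA SNORD104. Its lowest, median and highest levels were 8.29, 11.2 and 14.01 CPM in vehicle and 22.3, 27.1 and 33.3 CPM in nutlin. The groups were well apart, with an LFC of 1.36 ± 0.09 (SE) and an adjusted p of 3.8e-14. Most of these counts fell on SNHG25-202, an isoform of 278 bases with a median share of 86.0% in vehicle and 87.9% in nutlin, whose exons include SNORA50C as annotated, a snoRNA of 133 bases. For SNHG25, reads of the host exons and of the snoRNA sequence within them cannot be told apart. SNHG32, which carries SNORD48 and SNORD52 in the major histocompatibility region of chromosome 6, ran from 44.3 through a median of 51.7 to 69.5 CPM in vehicle. In nutlin it ran from 110.4 through 119.9 to 139.9 CPM, again with no overlap (LFC 1.20 ± 0.06, adjusted p = 8.0e-17, edgeR).

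SNHG8, host of the H/ACA snoRNA SNORA24, had 52.3, 63.1 and 73.7 CPM in vehicle as lowest, median and highest value and 126, 133 and 161 CPM in nutlin. Every nutlin sample was above every vehicle sample, and the LFC was 1.15 ± 0.06 (adjusted p = 3.3e-17, edgeR). This value is on counts. With the effective length of the gene in each sample as an offset the LFC was 0.76 (adjusted p = 2.2e-09), and the average length of its transcripts rose with the isoform change described below. ZFAS1, host of the SNORD12 family, had 73.6, 89.0 and 119 CPM in vehicle and 160, 174 and 242 CPM in nutlin, with no overlap of the groups (LFC 0.98 ± 0.07, adjusted p = 1.1e-12, edgeR). Whether kallisto used the strand of these stranded libraries is not given in the sources used here, so for hosts with a gene on the other strand, ZFAS1 among them, reads of the pair may be mixed.

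GAS5, named for its accumulation in growth-arrested cells and known to be removed by nonsense-mediated decay, had 240.4, 259 and 308 CPM in vehicle as lowest, median and highest value. In nutlin it had 468, 505 and 667 CPM, and no sample of either group reached the range of the other (LFC 0.97 ± 0.05, adjusted p = 1.0e-15, edgeR). EPB41L4A-AS1, host of the H/ACA snoRNA SNORA13, had 30.4, 32.7 and 39.4 CPM in vehicle and 58.2, 64.8 and 73.4 CPM in nutlin. These groups did not overlap either (LFC 0.96 ± 0.05, adjusted p = 4.9e-17, edgeR). Its exons share 49.1% of their bases with EPB41L4A on the other strand, which itself had only 0.741 CPM in vehicle and 1.12 CPM in nutlin.

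The 2 remaining hosts of high abundance that rose clearly were SNHG29 and SNHG5. SNHG29 had 404, 461 and 619 CPM in vehicle and 725, 803 and 1213 CPM in nutlin, without overlap (LFC 0.81 ± 0.08, adjusted p = 2.3e-10, edgeR). SNHG5, host of SNORD50A and SNORD50B, had 105, 132 and 176 CPM in vehicle and 169, 186 and 277 CPM in nutlin, and its highest vehicle sample lay above its lowest nutlin sample (LFC 0.55 ± 0.09, adjusted p = 2.7e-06, edgeR). SNHG1, host of a C/D series around SNORD22 and SNORD25 to SNORD31, changed little in total, with 194, 206 and 257 CPM in vehicle and 212, 235 and 249.9 CPM in nutlin. Its groups overlapped over most of their range, although the test called it higher (LFC 0.14 ± 0.04, adjusted p = 0.0045, edgeR).

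The other 12 hosts called higher had LFC between 0.13 (SNHG16) and 1.07 (SNHG22). Of these, SNHG22 is the weakest measured, with 0.142 to 1.12 CPM over all 20 samples and overlapping groups. SNHG14 rose from a median of 80.0 to 144 CPM, SNHG12 (SNORA16A, SNORA44, SNORA61 and SNORD99) from 85.4 to 148 CPM, SNHG15 (SNORA9) from 90.2 to 139 CPM and SNHG7 from 50.4 to 70.5 CPM, each without overlap of the groups. SNHG6 was also without overlap, between 60.8 and 82.4 CPM in vehicle and between 91.1 and 152 CPM in nutlin. SNHG19, SNHG31, SNHG9, SNHG11, SNHG4 and SNHG16 were called higher with overlapping groups.

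SNHG30, SNHG10 and SNHG21 fell. SNHG30, host of SNORD7, had 18.9, 22.1 and 25.1 CPM in vehicle and 8.62, 10.5 and 14.6 CPM in nutlin (LFC -0.99 ± 0.08, adjusted p = 1.1e-12, edgeR). SNHG10, host of the scaRNA SCARNA13, had 49.5, 56.4 and 66.1 CPM in vehicle and 25.5, 29.01 and 36.1 CPM in nutlin (LFC -0.93 ± 0.06, adjusted p = 3.7e-14, edgeR). In both, every nutlin sample lay below every vehicle sample. SNHG21, host of SCARNA15, had 13.7, 18.1 and 21.4 CPM in vehicle and 12.6, 14.1 and 17.5 CPM in nutlin, with overlapping groups (LFC -0.32 ± 0.07, adjusted p = 0.00042, edgeR). GLRX5, which lies opposite SNHG10 and shares 5.71% of its exon bases, fell as well, from 75.2 to 42.3 CPM in the mean.

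Among the 7 hosts that were not called, SNHG3 (SNORA73A and SNORA73B), SNHG17 (the SNORA71 group) and SNHG20 (SCARNA16) were well expressed. SNHG3 had 270.5 to 317 CPM in vehicle and 273 to 365 CPM in nutlin (LFC 0.05 ± 0.05, adjusted p = 0.41). SNHG17 had an LFC of -0.06 ± 0.04 (adjusted p = 0.22) and SNHG20 one of 0.01 ± 0.04 (adjusted p = 0.86, all edgeR). The other 4, SNHG18, SNHG26, SNHG27 and SNHG28, were below a mean of 1 CPM, and SNHG27 and SNHG28 held 0 counts in some samples. Their adjusted p was 0.11, 0.73, 0.37 and 0.089 (edgeR).

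**Figure D2:**
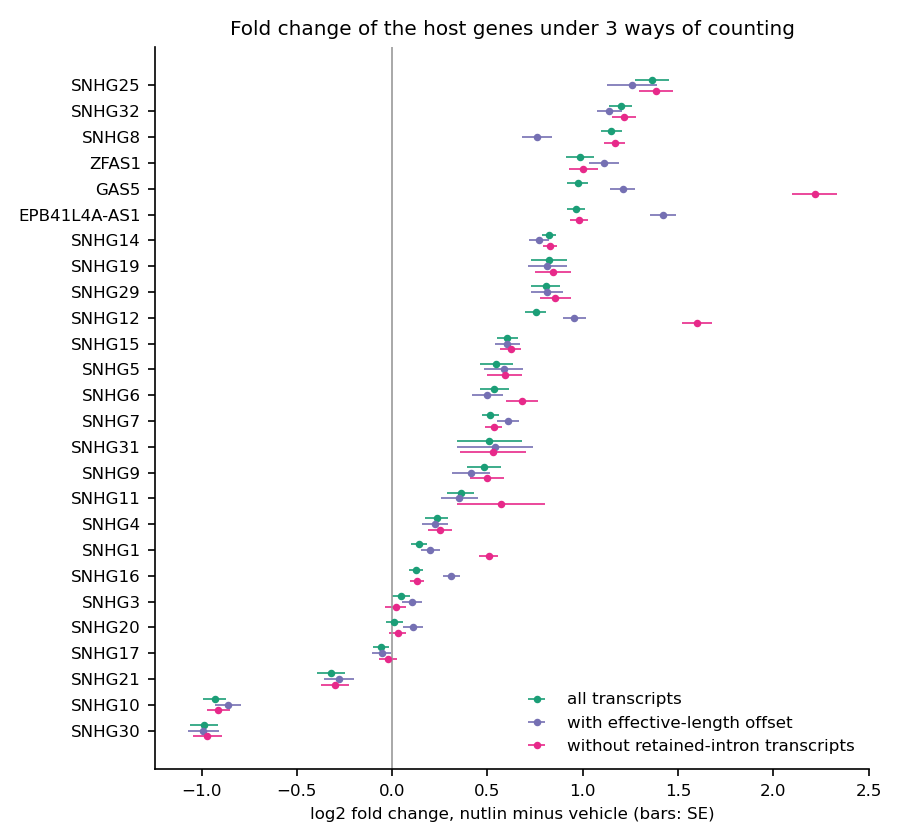
LFC with its SE (bars) of the 26 host lncRNAs averaging at least 1 CPM, from edgeR on all transcripts of the gene (green), with an effective-length offset (violet) and without retained-intron transcripts (pink). The 3 values lie close together for most genes, and they part for GAS5 (0.97, 1.21 and 2.22), SNHG12 (0.75, 0.96 and 1.60), SNHG1 (0.14, 0.20 and 0.51), EPB41L4A-AS1 (0.96, 1.42 and 0.98) and SNHG8 (1.15, 0.76 and 1.17).

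Together the 31 hosts took 0.208% to 0.251% of the matched counts in vehicle and 0.356% to 0.457% in nutlin. The ratio of the means was 1.70, and the 10 nutlin values over the vehicle mean had an SD of 0.13, which leaves out the vehicle spread. As a share of the counts on lncRNAs they were at 9.04% ± 0.84 in vehicle and 9.30% ± 0.92 in nutlin (SD, n = 10 each), and there the groups overlapped. Without SNHG29 the ratio was 1.64.

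A pair of samples stood above their groups. Nutlin replicate 6 had the highest nutlin level of 17 of the 26 host genes averaging at least 1 CPM, while it was highest for 17.2% of the 15172 genes at that level. Vehicle replicate 10 had the highest vehicle level of 18 of the 26, and of 24.4% of those 15172 genes. The same samples were highest for 80 and 78 of the 84 cytosolic ribosomal protein genes. Ribosomal protein genes took 13.9% of the counts in nutlin replicate 6, against 9.60% to 11.1% in the other nutlin samples, and 10.5% in vehicle replicate 10, against 6.91% to 9.04% in the other vehicle samples. What sets these samples apart was not tested. Without nutlin replicate 6, and without vehicle replicate 10, again 21 hosts were higher and 3 lower, and the LFC of GAS5 was 0.94 and 1.02.

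The hosts also changed in the makeup of their transcripts. The files hold 270 transcripts of the 31 genes, of which 132 have the same length as in GENCODE 44, so that exon structures taken from that release are approximate for the rest. Isoform counts are kallisto's estimates from reads that isoforms share. With edgeR's diffSpliceDGE, which asks whether an isoform changes differently from its gene, 172 isoforms of 23 hosts were tested. A higher share was called for 22 and a lower share for 26, in 13 hosts, against 4.64% and 2.39% of all isoforms tested. Retained-intron isoforms, which keep an intron that the other isoforms remove, were called higher in 2 and lower in 14 of 44 cases. The other isoforms were called higher in 20 and lower in 12 of 128. Isoforms of one gene are not independent cases. GAS5 gave 8 of the 26 lower shares, SNHG29 gave 5 and SNHG1 gave 4.

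The largest shift was in SNHG8. Isoform SNHG8-201, of 672 bases in the files, made up 26.4%, 33.1% and 39.7% of the counts of the gene in vehicle as lowest, median and highest share, and 53.6%, 60.6% and 62.9% in nutlin (adjusted p = 1.7e-10, edgeR). SNHG8-203, of 327 bases, went the other way, from 37.1%, 44.5% and 49.7% to 20.4%, 21.7% and 27.6% (adjusted p = 2.1e-09, edgeR). The groups did not overlap for either isoform. In GENCODE 44 SNHG8-201 has 485 bases and SNHG8-203 has 337, so the models in the files differ from that release. SNHG8-201 had 20.2 CPM in vehicle and 82.1 CPM in nutlin, and SNHG8-203 had 27.8 and 30.6 CPM. As shares of TPM, which account for the length of each isoform, the means were 16.1% and 37.8% for SNHG8-201 and 64.1% and 41.6% for SNHG8-203, so that on this scale the shorter isoform had the larger share in both groups.

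In GAS5, the fully spliced isoform GAS5-221 of 632 bases had 13.2%, 18.3% and 28.9% in vehicle and 40.7%, 43.97% and 46.4% in nutlin (adjusted p = 1.4e-28, edgeR). It had 50.7 CPM in vehicle and 231 CPM in nutlin. In SNHG32, SNHG32-203 rose from 15.5%, 22.8% and 26.9% to 35.9%, 39.0% and 48.6% (adjusted p = 4.3e-07), while SNHG32-207, which keeps a snoRNA in an exon, fell from 16.3%, 22.3% and 23.9% to 6.53%, 9.54% and 10.9% (adjusted p = 1.3e-05, both edgeR). SNHG32-207 had 11.1 CPM in vehicle and 11.05 CPM in nutlin, and the other isoforms together had 41.5 CPM in vehicle and 110 CPM in nutlin.

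Isoform SNHG1-211 had 29.3%, 32.5% and 41.4% of SNHG1 in vehicle and 44.7%, 47.3% and 53.2% in nutlin (adjusted p = 0.00073, edgeR), although SNHG1 as a whole changed little. ZFAS1-203 fell in share from 35.8%, 37.0% and 41.1% to 22.6%, 24.8% and 28.1% (adjusted p = 0.00041, edgeR), with 34.5 CPM in vehicle and 45.9 CPM in nutlin. EPB41L4A-AS1-203, of 578 bases, rose in share from 7.37%, 12.3% and 16.1% to 20.3%, 23.6% and 26.7% (adjusted p = 0.0040, edgeR). For all 8 of these isoforms the groups did not overlap. As they were picked for the largest called share differences, this describes them and is not a further result. No share of isoforms without overlap over all those tested is given here.

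**Figure D3:**
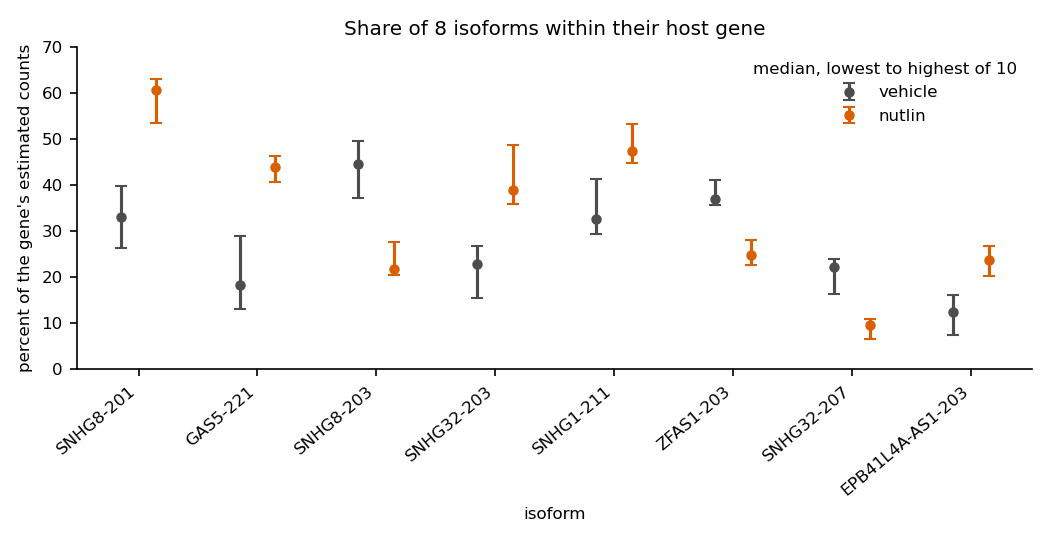
Share of the estimated counts of the gene, in percent, held by the 8 isoforms with the largest called differences, as median (point) with the lowest and highest of 10 samples (bars), in vehicle (grey) and nutlin (orange). The bars of the groups are apart for all 8, with SNHG8-201, GAS5-221, SNHG32-203, SNHG1-211 and EPB41L4A-AS1-203 higher after nutlin and SNHG8-203, ZFAS1-203 and SNHG32-207 lower.

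Of the 26 isoforms that lost share, 12 are annotated as retained introns and keep a snoRNA in an exon, and 2 of the 36 tested isoforms of this kind gained share. Introns of GAS5 and SNHG1 that are kept by retained-intron transcripts of nearly the same length in the files and in GENCODE 44 (GAS5-201 and SNHG1-209) are printed here because they show what such a transcript still holds. Sequences are from GENCODE 44 on GRCh38, minus strand, written 5′ to 3′. Capitals mark the snoRNA as placed by RefSeq (SNORD47 with 77 bases and SNORD27 with 72 bases). Both introns begin with gt and end with ag. The first lies at chr1:173864305-173864483 and the second at chr11:62854939-62855132.
GAS5 intron with SNORD47: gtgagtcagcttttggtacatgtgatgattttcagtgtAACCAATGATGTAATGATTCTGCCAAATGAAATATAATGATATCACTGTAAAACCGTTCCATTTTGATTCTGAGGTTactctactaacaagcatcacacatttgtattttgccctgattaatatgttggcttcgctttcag
SNHG1 intron with SNORD27: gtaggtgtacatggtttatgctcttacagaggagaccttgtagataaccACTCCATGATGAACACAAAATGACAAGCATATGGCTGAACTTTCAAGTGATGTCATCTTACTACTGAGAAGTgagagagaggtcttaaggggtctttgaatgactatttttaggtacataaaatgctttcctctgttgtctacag
In SNORD27 the C box letters TGATGA start at base 7 and the D box letters CTGA at base 64, and in SNORD47 CTGA starts at base 70 while TGATGA is not among its letters. The isoforms that gained share, GAS5-221 and SNHG1-211, splice these introns out.

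Summed over a gene, retained-intron transcripts took a smaller share of several hosts after nutlin. Of the 12 hosts with such transcripts in the files, 11 had enough counts for a test. The test, limma on the log2 ratio of retained to other counts, was added after the data had been seen. The share was called lower for 6 hosts and higher for 3, against 7.39% and 36.8% of the 4898 genes tested. Every nutlin sample lay below every vehicle sample for 5 hosts and above for 1, against 1.2% and 8.25% of these genes. The median change of the log2 ratio was -0.50 for the hosts and 0.28 for all genes. Pooled over the hosts, the share was 19.5% ± 1.61 in vehicle and 13.7% ± 0.78 in nutlin (SD, n = 10 each), and the groups did not overlap. Over the lncRNA genes that are not among the hosts it was also lower in the mean, at 7.06% ± 0.56 and 6.22% ± 0.46, with overlapping groups. Over mRNAs it was higher, at 5.61% ± 0.14 and 6.85% ± 0.20, without overlap.

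GAS5 showed the largest change. Retained-intron transcripts made up 60.5%, 74.5% and 79.9% of its counts in vehicle as lowest, median and highest share, and 34.2%, 36.4% and 40.4% in nutlin (log2 ratio change -2.23 ± 0.15 SE, adjusted p = 3.4e-10, limma). In level, these transcripts stayed at 195 ± 17.4 CPM in vehicle and 195 ± 14.7 CPM in nutlin, while the others had a mean of 72.0 CPM in vehicle and 330 CPM in nutlin, 4.58-fold more. In counts, the increase of GAS5 thus lay in its spliced transcripts.

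Other hosts differed in which transcripts were behind the lower share. In SNHG1 the retained transcripts had 39.0%, 44.99% and 47.2% in vehicle and 26.9%, 28.4% and 31.4% in nutlin (log2 ratio change -0.96 ± 0.07, adjusted p = 1.3e-09, limma). They had 93.7 CPM in vehicle and 67.7 CPM in nutlin, while the other transcripts had 118 and 166 CPM, differences of opposite sign within the sum over the gene. SNHG6 had 9.27%, 13.3% and 22.2% in vehicle and 5.11%, 6.12% and 7.44% in nutlin, and its retained transcripts had 10.04 CPM in vehicle and 6.34 CPM in nutlin.
In SNHG12, where most counts fall on retained transcripts, the share went from 80.7%, 83.5% and 87.2% to 68.8%, 70.1% and 73.9%, with 1.43-fold more of the retained and 2.99-fold more of the other transcripts in nutlin. SNHG29 (median 7.55% to 5.42%) and SNHG5 (median 3.84% to 1.91%) were the other 2 called lower. SNHG14 (median 2.42% to 3.45%), SNHG16 (median 2.77% to 3.84%) and SNHG3 (median 15.0% to 18.4%) were called higher, of which only SNHG14 had groups that did not overlap. SNHG11 and SNHG17 were not called. The annotation of SNHG3 overlaps the protein-coding RCC1 on the same strand, and reads shared by the pair cannot be assigned with certainty.

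**Figure D4:**
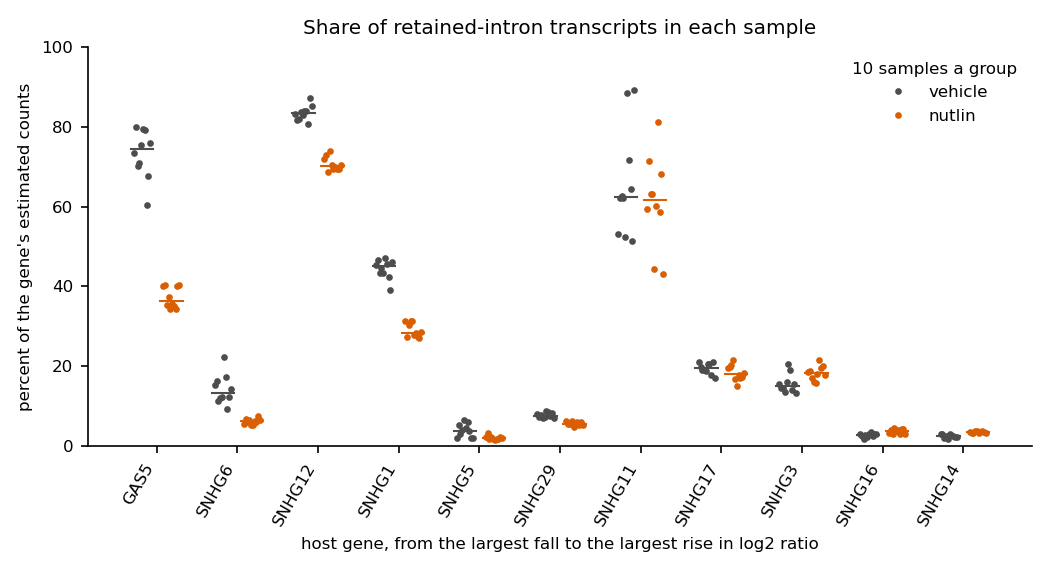
Share of retained-intron transcripts in the estimated counts of 11 host genes, in percent, in each of 10 vehicle (grey) and 10 nutlin (orange) samples, with the group medians as lines. GAS5, SNHG6, SNHG12, SNHG1 and SNHG29 have all nutlin samples below all vehicle samples, and SNHG14 the reverse.

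The start of the RNA was looked up in RefSeq (GRCh38.p14), whose promoter table held 27 of the 31 hosts. A C at the annotated start followed by at least 4 bases that are each C or T, searched on the transcript strand, was found in 7 of the 27 (25.9%) and in 4.04% of 27305 promoters. The letters TATAA or TATATA between 40 and 16 bases before the start, on the transcript strand and with overlapping matches counted once, were found in 6 (22.2%) and in 4.65%. Both features together were found in 4 hosts, SNHG5, SNHG12, SNHG19 and ZFAS1, and in 0.106% of all promoters. The letters CACGTG, which read the same on both strands and form an E-box, were in the 300 bases of 2 hosts (7.41%), SNHG7 and SNHG30, and in 7.43% of all promoters.

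The windows from 45 bases before the start to 30 bases from it are shown for the 4 hosts with both features, for SNHG32 with the pyrimidine start alone, and for the 2 hosts that fell most. They were picked with the LFC values known, to show starts with and without these letters, and are not a sample of the 27. Capitals mark the pyrimidine run at the start and the TATA letters.
SNHG5, chr6:85678704-85678778, minus strand: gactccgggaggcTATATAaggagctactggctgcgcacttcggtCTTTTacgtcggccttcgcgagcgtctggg
SNHG12, chr1:28581844-28581918, minus strand: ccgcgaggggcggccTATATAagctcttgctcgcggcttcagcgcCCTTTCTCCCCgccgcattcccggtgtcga
SNHG19, chr16:2155329-2155403, minus strand: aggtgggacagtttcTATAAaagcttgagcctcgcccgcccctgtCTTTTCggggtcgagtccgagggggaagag
ZFAS1, chr20:49278597-49278671, plus strand: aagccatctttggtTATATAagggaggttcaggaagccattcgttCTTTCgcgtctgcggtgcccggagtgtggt
SNHG32, chr6:31834871-31834945, plus strand: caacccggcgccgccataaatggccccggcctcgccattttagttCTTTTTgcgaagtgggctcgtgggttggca
SNHG10, chr14:95534843-95534917, minus strand: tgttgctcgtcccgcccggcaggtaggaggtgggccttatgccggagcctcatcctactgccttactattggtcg
SNHG30, chr17:35568069-35568143, plus strand: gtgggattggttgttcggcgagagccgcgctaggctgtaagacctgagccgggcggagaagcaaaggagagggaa
The 5 hosts shown with a pyrimidine start were all SDE and higher, with LFC of 0.55 to 1.20. Neither SNHG10 nor SNHG30 has these letters at its annotated start. As the windows were picked with the LFC known, this match of letters and direction is not a result. Over the 27 hosts, 6 of 7 with the pyrimidine start and 11 of 20 without it were called higher. SNHG8, GAS5, EPB41L4A-AS1 and SNHG29 were among the latter, with LFC of 0.81 to 1.15. The other 2 hosts with the pyrimidine start were SNHG4, called higher with an LFC of 0.23, and SNHG18. SNHG18, with a run of 21 bases, is below a mean of 1 CPM and was not called, with an LFC of -0.67. The annotated start decides these matches, and in genes with several starts, such as GAS5, the one in use was not tested.

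Related gene lists moved in different directions in the same fit. Their shares are set beside the 26.5% of all genes, and the 57.6% of genes from a mean of 10 CPM, that were called lower. Of the 8 core proteins of snoRNPs, the particles that snoRNAs form, 7 (87.5%) fell in the edgeR test, with a median LFC of -0.64. The H/ACA proteins had the lowest LFC values, with the pseudouridine synthase DKC1 at 247 to 278 CPM in vehicle and 129 to 166 CPM in nutlin (LFC -0.85 ± 0.04), NOP10 at -0.82 ± 0.07, GAR1 at -0.68 ± 0.05 and NHP2 at -0.65 ± 0.06. Of the C/D proteins, NOP58 had an LFC of -0.64 ± 0.03, NOP56 one of -0.52 ± 0.04 and the methyltransferase FBL one of -0.40 ± 0.05. SNU13 was not called, with -0.05 ± 0.06 (adjusted p = 0.54). Of 10 snoRNP assembly factors, 9 (90%) fell, led by RUVBL2 (LFC -0.81 ± 0.05), and NOPCHAP1 rose, from a median of 12.1 to 30.2 CPM (LFC 1.26 ± 0.08). Of 7 genes for snoRNA release and trimming, 5 (71.4%) fell, led by the debranching enzyme DBR1 (LFC -0.88 ± 0.06).

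Cytosolic ribosomal protein genes and other TOP mRNAs leaned the same way as the hosts. The ribosomal protein genes were taken by symbol, RPS27L and RPL22L1 among them, and the TOP feature was not checked for each. Of the 84 ribosomal protein genes, 59 (70.2%) rose and 3 (3.57%) fell, with a median LFC of 0.34. Of 17 other TOP mRNAs, 11 (64.7%) rose and 2 (11.8%) fell, with a median of 0.32. Over all genes tested 32.3% were called higher, and 27.4% of those from a mean of 10 CPM. The largest rises were in RPS27L, a p53 target (LFC 1.95 ± 0.08), and in the translation elongation factor EEF2 (LFC 1.02 ± 0.04), and the largest falls in RPL22L1 (LFC -1.57 ± 0.12) and the nucleolar protein NPM1 (LFC -0.62 ± 0.05). Of 10 nonsense-mediated decay factors, 5 rose and 3 fell, between UPF3B (LFC -0.49 ± 0.05) and UPF3A (LFC 0.60 ± 0.03).

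Other host genes differed by type, and the further lncRNA hosts leaned the same way as the 31 named ones. Of 60 further lncRNA genes with a snoRNA inside, 39 could be tested, and 17 (43.6%) rose and 7 (17.9%) fell. Over all genes tested 32.3% were called higher and 26.5% lower. The median LFC of these lncRNA hosts was 0.60, beside 0.54 for the 31 named hosts. The largest changes were in genes of very low level, ENSG00000270066 (0 to 0.421 CPM in vehicle, 1.07 to 2.47 in nutlin) and ULK4P1, which was below 1 CPM in all samples. Of 267 tested protein-coding hosts, 86 (32.2%) rose and 121 (45.3%) fell, with a median of -0.08. The share that rose was near the 32.3% of all genes tested, and the share that fell lay between that of all genes and that of genes from a mean of 10 CPM. The largest fall was in WEE1, a kinase of the G2/M checkpoint, from a median of 131 to 22.3 CPM (LFC -2.57 ± 0.05), and the largest LFC upward in PPP1R14C, which was at or near 0 in vehicle and at 1.17 to 3.14 CPM in nutlin.

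**Figure D5:**
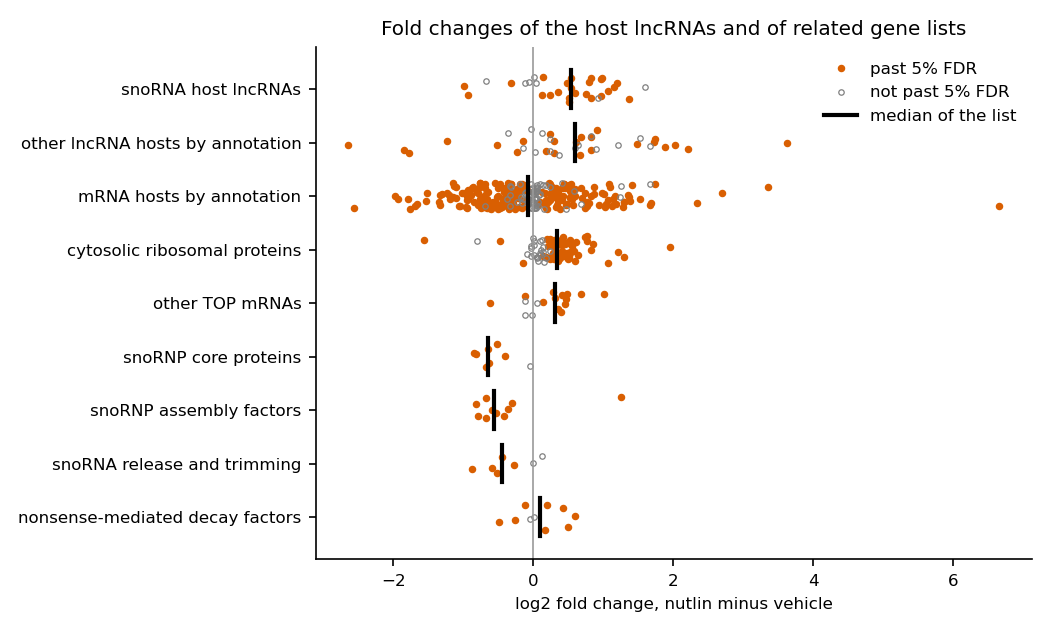
LFC (nutlin against vehicle) of each tested gene in the 31 host lncRNAs and 8 related lists, with genes past 5% FDR filled, others open and the list median as a bar. The host lncRNAs, other lncRNA hosts, ribosomal protein genes and other TOP mRNAs lie mostly to the right of 0, and the 3 lists of snoRNP and snoRNA processing genes mostly to the left.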

How the data were processed

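Poly(A) RNA of 20 samples was sequenced as stranded paired-end reads. Per the labels and file headers, the authors quantified transcripts with kallisto 0.42.4 on GRCh38 (Ensembl release 85) and deposited estimated counts, TPM and effective lengths, unnormalized apart from TPM. The strand setting is not given in the sources used here. Of 198968 transcripts, 191106 (96.05%) matched GENCODE 44, and the 7862 others were not used. Sums of estimated counts per gene were rounded to whole numbers. Genes with at least 1 count in each group were tested with edgeR 4.0.16 (TMM, quasi-likelihood F-test, group only, Benjamini-Hochberg over 27697 genes, 5% FDR) in R 4.3.3. Isoforms with a mean of at least 10 counts were tested with diffSpliceDGE, and retained-intron ratios (0.5 added to both sums) with limma 3.58.1. SE of an LFC is the absolute LFC over the root of F. DESeq2 1.42.0 and limma voom were alternatives. The scripts were tested on simulated data.

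The host genes and gene lists were chosen with earlier results of these data known. Full values are given for hosts from a mean of 10 CPM: the 6 largest rises and falls, the 5 most abundant in vehicle, and GAS5, ZFAS1 and EPB41L4A-AS1. Isoforms named are the 8 largest called share differences, at most 2 per gene. In each list the largest riser and faller and all snoRNP core proteins are named. Other hosts, isoforms and genes were named after their values were seen. For hosts of low level the precision is limited by the number of read pairs. Levels below 1 CPM rest on fewer than about 20 counts a sample. Abundant hosts still spread between samples. SNHG29, with at least 6228 counts in every sample, had 480 ± 66.3 CPM in vehicle (SD, n = 10). A few items are not reported here.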

Additional observations from a re-analysis of the deposited data

Results flagged for a closer look

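Single samples stood apart from the 9 others of their group (Dixon's test at 95%, gap over range above 0.466) in 14 of 90 groups of values looked at. Chance alone flags about 1 in 20 such groups.

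Nutlin replicate 6 was the high sample in 8 of them. It had 242 CPM of ZFAS1 (the next nutlin sample had 194), 667 CPM of GAS5 (next 559), 101 CPM of SNHG19 (next 81.2), 1213 CPM of SNHG29 (next 858), 169 CPM of SNHG15 (next 149), 277 CPM of SNHG5 (next 206) and 152 CPM of SNHG6 (next 114). Its share of SNHG8-203 was 27.6%, against 23.2% in the next sample.

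Vehicle replicate 10 was the high sample in 5. It had 63.2 CPM of SNHG19 (next 47.2), 115 CPM of SNHG12 (next 97.8), 121 CPM of SNHG15 (next 101) and 257 CPM of SNHG1 (next 223). Its share of GAS5-221 was 28.9%, against 21.2% in the next vehicle sample. These are the samples with the highest ribosomal protein share of their groups, and the cause was not tested.

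Nutlin replicate 2 had a retained-intron share of 3.14% in SNHG5, where the next nutlin sample had 2.24%.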

How the results depend on the processing

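The numbers of hosts called higher (21) and lower (3) stayed within 1.5 times under every alternative tried. Over the alternatives, 480 of the single-gene and single-isoform results and 214 of the counts and summed levels kept their direction and side of the threshold. SNHG31 missed 5% FDR with limma on log2(TPM + 0.1) (adjusted p = 0.055) and 1% FDR with edgeR, SNHG3 was called higher with filterByExpr (adjusted p = 0.016), and SNHG17 was called lower with limma on log2(TPM + 0.1) and log2(TPM + 1) (adjusted p = 0.035 and 0.030). No scaling moved the median LFC of all genes by over 0.1.

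Counts moved in 23 cases. Some are small counts of genes, and others are the counts of isoforms called, which are not small. Genes for snoRNA release and trimming called higher went from 0 to 1 with DESeq2 size factors, DESeq2, filterByExpr, no filter, the effective-length offset, and without nutlin replicate 6 or vehicle replicate 10. Other TOP mRNAs called lower went from 2 to 1 with DESeq2 size factors, DESeq2, filterByExpr, the length offset, the replicate block and the same 16 samples without it, and to 4 without nutlin replicate 6. Other lncRNA hosts called lower went from 7 to 4 with DESeq2, 0 with filterByExpr (which leaves out low genes), 2 with the block, 4 with the same 16 samples and 1 at 1% FDR. Isoforms with a higher share went from 22 to 39 with limma on log2 ratios and 14 at 1% FDR, and those with a lower share from 26 to 52 with limma. Apart from the filter and the stricter FDR, the cause was not tested.

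The labels do not say whether the 8 replicate numbers shared by the groups pair the samples. Deviations of same-numbered samples correlated at -0.04 to 0.08. This shows no shared deviation but cannot exclude a pairing. The block leaves 16 samples. With it, and with the same 16 samples without it, again 21 hosts were higher and 3 lower. Isoforms with a higher and a lower share were 15 and 21 with the block and 17 and 22 without it. Hosts with a higher retained-intron share went from 3 to 1 with the block (SNHG14), where SNHG16 had an adjusted p of 0.084 and SNHG3 one of 0.073, and to 2 with the 16 samples alone, where SNHG3 had 0.16 (limma). The alternatives without a sample, with the same 16 samples, and all those of the retained-intron ratio were added after the data had been seen. Levels of the 5 hosts below 1 CPM rest on few counts, and 1 of them, SNHG22, was called.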
